A study of Homo sapiens with 6 samples.

Results

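The 34 genes described here encode the NF-kB transcription factor subunits, the proteins that restrain or adapt NF-kB signalling, and cytokines, surface molecules and secreted defence proteins known as its targets in epithelium. Each gene was read from its brightest Affymetrix probe set that carries a single gene symbol. Of the 34 genes, 31 had such a probe set among the 19775 genes named on the array, and 26 had a mean of at least 5 on the log2 scale and were tested together with the other genes that passed this level, 12317 in all. The probe sets of BCL3 are named with another gene as well and were not used, and TRAF2 and BIRC3 were not analysed here.

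The cells were HCA-7, an established human colorectal cancer line whose colonies in type 1 collagen are either cystic or spiky. The cystic arrays came from a clone the labels call cc3 and the spiky arrays from a clone called sc1, both seeded in three-dimensional collagen at 50000 cells/ml with no further treatment named. RNA was extracted from the collagen layer that held the cells at day 5, 10 and 15, and each clone and day has 1 array, so 6 arrays make up the study. With 1 clone per shape, colony shape and clone cannot be told apart, the 3 days serve as the repeats of each clone, and nothing in the labels says that the arrays came from separate experiments, so p-values measure the spread between these arrays only.

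NF-kB dimers are held in the cytoplasm by IkB proteins. When receptors such as those for TNF, IL-1 or bacterial lipoproteins are engaged, adaptors and kinases activate the IkB kinase complex, the IkB proteins are degraded, and the dimers enter the nucleus. Among the genes they switch on are their own inhibitors, which ends the response, and in intestinal epithelium also chemokines, adhesion molecules, complement factors, antimicrobial proteins and the receptor that carries IgA into the lumen.

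NF-kB dimers bind a short, partly symmetrical DNA element. Promoters of 28 of the 34 genes were found in the RefSeq promoter table (build GRCh38.p14), and the 250 bases before the start were searched on both strands for the NF-kB consensus, and for the TATA box, TATAAA. The consensus was present in 11 of 28 (39.3%) of these windows, beside 9.57% of the 27305 promoters of the table, and the TATA box in 8 of 28 (28.6%), beside 11.1%. The list includes genes chosen as known NF-kB targets, so its share with the consensus is no independent test. LTB and TNFAIP3, whose levels differed between the clones, also hold the consensus but are not printed. The promoters of 5 genes are printed, those with the largest differences between clones or days among the tested genes that hold the consensus. All are 250 bases long, written 5′ to 3′ on the gene's strand, which is the plus strand for these 5, and capitals mark the consensus.

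LCN2: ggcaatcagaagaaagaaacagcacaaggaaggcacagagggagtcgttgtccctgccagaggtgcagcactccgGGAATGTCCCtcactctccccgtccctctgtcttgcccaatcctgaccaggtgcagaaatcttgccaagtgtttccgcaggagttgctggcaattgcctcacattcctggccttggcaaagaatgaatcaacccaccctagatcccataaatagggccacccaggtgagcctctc
NFKBIZ: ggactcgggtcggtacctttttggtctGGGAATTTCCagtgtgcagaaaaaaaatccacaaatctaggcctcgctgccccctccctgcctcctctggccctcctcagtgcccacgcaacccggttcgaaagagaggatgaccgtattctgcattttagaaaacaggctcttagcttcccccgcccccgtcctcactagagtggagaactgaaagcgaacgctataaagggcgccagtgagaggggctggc
CFB: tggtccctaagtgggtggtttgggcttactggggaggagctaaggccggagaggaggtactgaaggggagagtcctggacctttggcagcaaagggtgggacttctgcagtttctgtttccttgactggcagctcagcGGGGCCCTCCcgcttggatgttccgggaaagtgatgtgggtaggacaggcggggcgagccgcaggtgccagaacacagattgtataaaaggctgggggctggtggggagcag
IL32: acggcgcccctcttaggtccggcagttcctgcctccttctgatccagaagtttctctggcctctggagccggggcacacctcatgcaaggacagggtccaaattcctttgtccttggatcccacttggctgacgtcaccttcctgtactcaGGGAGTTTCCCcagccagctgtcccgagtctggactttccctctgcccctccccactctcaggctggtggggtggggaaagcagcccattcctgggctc
NFKB1: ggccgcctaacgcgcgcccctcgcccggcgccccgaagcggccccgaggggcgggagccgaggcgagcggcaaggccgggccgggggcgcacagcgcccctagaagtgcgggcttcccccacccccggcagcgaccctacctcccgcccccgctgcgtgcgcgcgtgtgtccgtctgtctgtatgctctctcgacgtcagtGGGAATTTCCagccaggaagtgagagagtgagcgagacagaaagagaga

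The windows lie at chr9:128149203-128149452 for LCN2, chr3:101827740-101827989 for NFKBIZ, chr6:31945845-31946094 for CFB, chr16:3065153-3065402 for IL32 and chr4:102501109-102501358 for NFKB1. The match of LCN2 reads on the opposite strand, 175 to 166 bases before the start. In IL32 a match on each strand overlaps the other, so that the capitals span 11 bases. NFKBIZ and NFKB1 carry the same 10 bases, 223 to 214 and 49 to 40 bases before their starts. As described below, these genes moved in opposite directions over the culture. CFB and NFKBIZ also hold a TATA box, at 30 to 25 and 29 to 24 bases before the start. PIGR, which had the largest difference between the clones among these genes, had no match to the consensus in this window, and ICAM1 had a TATA box but no consensus match. The search took exact matches to the consensus only, so a window without a match is not shown to lack an NF-kB element.

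The levels of the genes spanned most of the scale of the array (plot of the 31 genes on the 6 arrays). The mitochondrial superoxide dismutase SOD2 was the brightest, with values of 11.58 to 11.69 in the cystic and 11.39 to 11.53 in the spiky clone. Levels of different probe sets are not set against each other beyond this, since a probe set's brightness depends on its probes. Of the 31 genes, 5 had a mean under 5, which is close to background, and were not tested. They are TNF (mean 2.86), the chemokines CXCL10 (3.15) and CCL20 (4.41), IL1B (4.52) and the adaptor TRAF1 (4.63). Only 2 of their 30 values lay above 5, CCL20 in the cystic clone at day 10 (5.47) and IL1B in the cystic clone at day 15 (5.25).

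**Figure D1:**
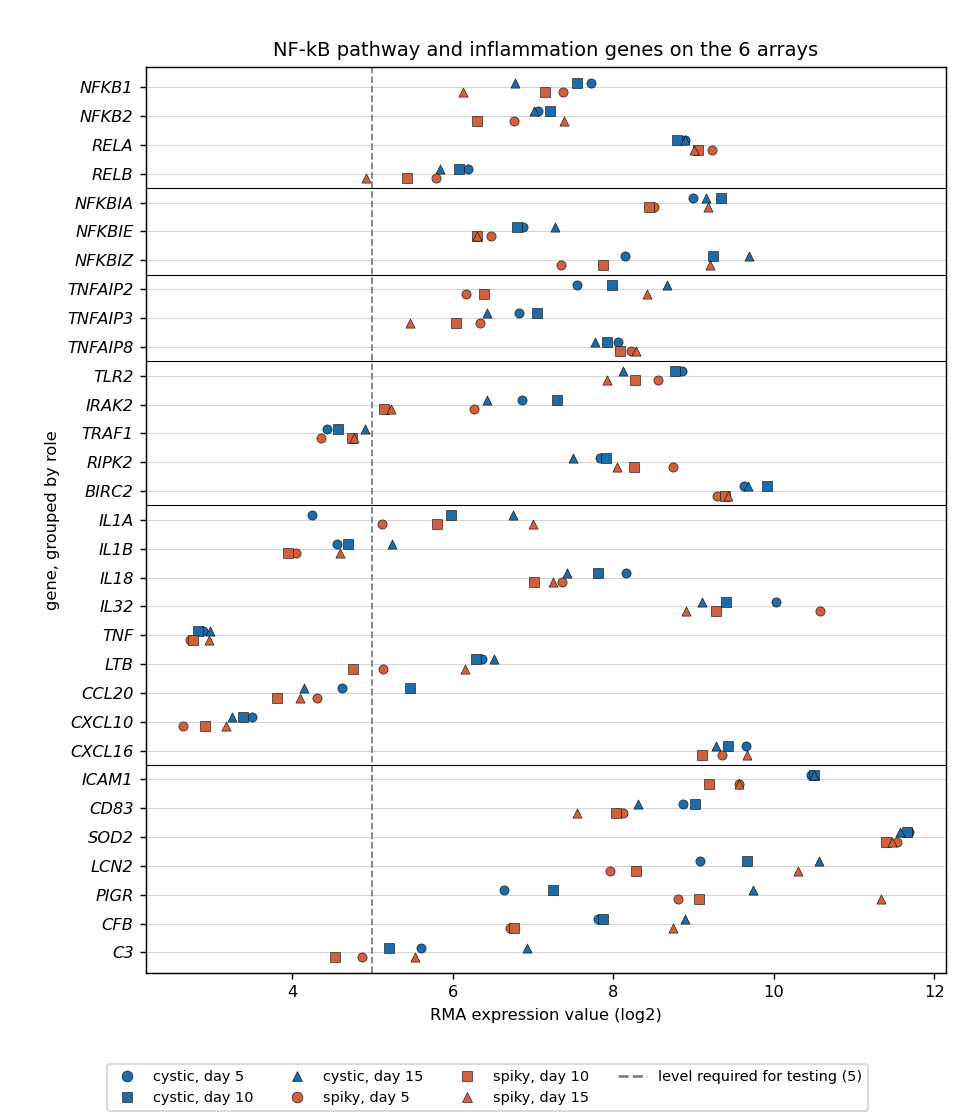
Log2 RMA values (horizontal axis) of the 31 genes with a single-symbol probe set, grouped by role, with 1 point per array; blue marks the cystic and orange the spiky clone, and the dashed line is the level of 5 required for testing. The blue ICAM1 points lie on top of each other between 10.46 and 10.50, right of all 3 orange ones, and the orange PIGR triangle at 11.33 is the highest PIGR value.

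Of the epithelial markers, EPCAM, CDH1, KRT8, KRT18, KRT19 and VIL1 had a mean of at least 5, while KRT20, CDX1, CDX2, LGALS4, CDH17 and GPA33, also markers of colorectal epithelium, lay under it. Several of the inflammation genes are also made by leukocytes and stromal cells. Of 15 leukocyte markers on the array 4 reached a mean of 5, the highest at 5.63 (CSF1R), and the pan-leukocyte gene PTPRC had a mean of 2.95. Their summed level, on the log2 scale, ran from 8.27 to 8.54 in the cystic and from 7.93 to 8.30 in the spiky clone. Fibroblast markers reached that level in 2 of 11 cases (COL1A1 and FBLN1), with sums of 8.08 to 8.88 and 8.04 to 8.56, and endothelial markers in 0 of 6. The 3′ to 5′ difference of the ACTB control probes, a sign of RNA quality, was 2.83 to 3.28 in the cystic and 2.73 to 3.10 in the spiky clone. For the GAPDH control probes it was 0.63 to 0.79 in the cystic and 0.49 to 0.63 in the spiky clone. The part of these in the results below was not tested.

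The first comparison set the spiky against the cystic clone with culture day as a block. Of the 26 tested genes, 11 were lower and 2 were higher in the spiky clone (limma, Benjamini-Hochberg adjusted p under 0.05), where 7.74% and 3.65% of the 12317 genes were. The lower ones were ICAM1, IRAK2, TNFAIP2, LTB, C3, LCN2, NFKBIZ, CD83, TNFAIP3, CFB and BIRC2, and the higher ones PIGR and RIPK2. The tested genes come from a list chosen with earlier results of these data known, so their counts beside those of all genes are no independent test. As the arrays hold RNA of whole cultures, fewer cells that express a gene and less RNA per cell cannot be told apart. The median log2 difference over the 26 genes was -0.53, beside -0.03 over all genes tested, and under every alternative setting it stayed between -0.59 and -0.43. In 10 genes all 3 spiky values lay below all 3 cystic ones (10.1% of all genes) and in 3 above (5.50%). Of all called genes 32.1% were higher in the spiky clone, or 44.5% with each array centred on its median. Of the epithelial markers tested, 1 of 6 passed, VIL1, which was lower in the spiky clone (-0.68, adjusted p = 0.0411).

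**Figure D2:**
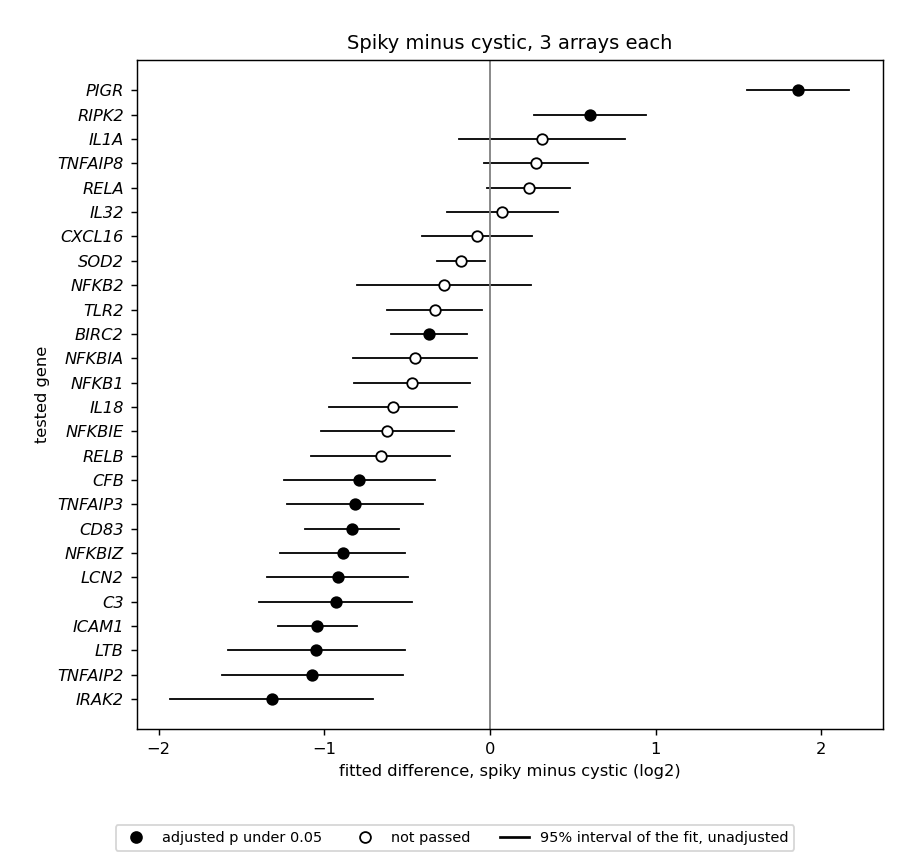
Fitted log2 difference, spiky minus cystic (horizontal axis), for the 26 tested genes; points are the limma estimates over 3 arrays per clone, lines their unadjusted 95% intervals, and filled points have an adjusted p under 0.05. PIGR stands at 1.86 on the right, and 11 filled points lie left of 0, from BIRC2 at -0.37 to IRAK2 at -1.32.

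None of the 4 measured subunits passed between the clones. NFKB1, whose product is processed to the p50 subunit, differed by -0.47 (adjusted p = 0.0906 in limma), NFKB2, its counterpart in the non-canonical pathway, by -0.28 (0.534) and RELB, the partner of processed NFKB2, by -0.66 (0.0520). RELA, the main activating subunit, read 8.89, 8.79 and 8.89 at day 5, 10 and 15 in the cystic clone and 9.23, 9.05 and 9.001 in the spiky clone. The RELA values of the clones did not overlap, yet the difference of 0.24 (95% interval -0.02 to 0.49) did not pass (adjusted p = 0.233). RELB values did not overlap either, at 6.19, 6.08 and 5.85 in the cystic against 5.79, 5.43 and 4.92 in the spiky clone.

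Of the IkB-type proteins, 1 of 3 measured passed. NFKBIZ, a nuclear IkB protein that is induced by IL-1 and needed to switch on targets such as LCN2, read 8.15, 9.24 and 9.70 in the cystic clone and 7.35, 7.87 and 9.20 in the spiky clone. It was lower in the spiky clone on each day, by 0.80, 1.37 and 0.49, though the ranges of the clones overlapped (fitted difference -0.89, SE 0.17, limma adjusted p = 0.0102). NFKBIA, the classical inhibitor IkB-alpha, differed by -0.45 (adjusted p = 0.121) and NFKBIE, IkB-epsilon, by -0.62 (0.0579).

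TNFAIP3 encodes A20, a ubiquitin-editing enzyme that shuts signalling down upstream of the IkB kinases. Its values were 6.82, 7.05 and 6.42 in the cystic and 6.34, 6.04 and 5.47 in the spiky clone, with no overlap, a difference of -0.81 (1.76-fold lower, SE 0.18, limma adjusted p = 0.0207). TNFAIP2, named for its induction by TNF, read 7.55, 7.98 and 8.67 against 6.17, 6.39 and 8.42. The spiky clone was 1.38 and 1.59 lower at day 5 and 10 but 0.24 lower at day 15, and the fitted difference of -1.07 (SE 0.24, adjusted p = 0.0224) averages over these. TNFAIP8, an inhibitor of cell death, lay higher in the spiky clone on each day without passing (0.28, adjusted p = 0.259).

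Among receptors, adaptors and kinases the directions were mixed. IRAK2, a kinase that sustains IL-1 and Toll-like receptor signalling, had the largest negative difference of the 26 genes. It read 6.87, 7.30 and 6.43 in the cystic clone and 6.26, 5.14 and 5.23 in the spiky clone, with no overlap, which is 2.49-fold lower (log2 difference -1.32, SE 0.27, limma adjusted p = 0.0148). RIPK2, the kinase downstream of the NOD receptors, was higher in the spiky clone, at 8.75, 8.25 and 8.05 against 7.84, 7.91 and 7.49. All 3 spiky RIPK2 values were above all cystic ones (log2 difference 0.60, 1.52-fold, SE 0.15, adjusted p = 0.0326). BIRC2, the ubiquitin ligase cIAP1, read 9.63, 9.91 and 9.68 against 9.30, 9.39 and 9.43, a small difference without overlap of -0.37 (adjusted p = 0.0482). TLR2, the receptor for bacterial lipoproteins, differed by -0.33 (adjusted p = 0.137).

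Of the cytokines and chemokines 1 of 5 tested genes passed. LTB, which with lymphotoxin alpha forms the ligand of the lymphotoxin beta receptor, read 6.37, 6.29 and 6.52 in the cystic and 5.13, 4.76 and 6.15 in the spiky clone. The clones did not overlap, and since 1 spiky array lay under 5 the difference is given as at least 1.95-fold lower (fitted log2 difference -1.05, SE 0.24, limma adjusted p = 0.0223). IL18, a cytokine made constitutively by intestinal epithelium, read 8.16, 7.81 and 7.43 against 7.36, 7.02 and 7.25, with no overlap but an adjusted p of 0.0603. The other tested genes were IL1A (0.32), IL32 (0.08) and the membrane-bound chemokine CXCL16 (-0.08), with adjusted p of 0.442 to 0.814.

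The secreted and surface effectors held 6 of the 13 calls. ICAM1, the adhesion molecule that neutrophils bind, read 10.46, 10.50 and 10.50 in the cystic clone and 9.57, 9.20 and 9.56 in the spiky clone. The cystic values lay within 0.04 of each other, the clones did not overlap, and ICAM1 was 2.06-fold lower in the spiky clone (log2 difference -1.04, SE 0.11, limma adjusted p = 0.000674). Its other probe sets above log2 5, 2 in number, differed by -1.42 and -1.001.

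CD83, a surface protein best known from activated dendritic cells, read 8.88, 9.01 and 8.31 against 8.12, 8.03 and 7.55. The spiky clone was lower by a like amount on each day, between 0.75 and 0.98, and the ranges did not overlap (fitted difference -0.83, SE 0.13, limma adjusted p = 0.00399). LCN2, a siderophore-binding protein that starves bacteria of iron, read 9.08, 9.66 and 10.56 in the cystic and 7.96, 8.28 and 10.30 in the spiky clone. The day 15 value of the spiky clone thus lay within the cystic range, and the fitted difference was -0.92 (SE 0.19, adjusted p = 0.0147). SOD2 differed by -0.17, with no overlap and an adjusted p of 0.122.

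Both complement genes were lower in the spiky clone. C3, the central complement component, read 5.60, 5.20 and 6.92 in the cystic and 4.86, 4.53 and 5.54 in the spiky clone, and the difference was at least 1.66-fold because 2 spiky arrays lay under 5 (fitted log2 difference -0.93, SE 0.20, limma adjusted p = 0.0197). CFB, complement factor B of the alternative pathway, read 7.81, 7.87 and 8.90 against 6.71, 6.76 and 8.74. The CFB values were 1.10 and 1.11 lower in the spiky clone at day 5 and 10 and 0.15 lower at day 15 (fitted difference -0.79, SE 0.20, adjusted p = 0.0361). A dimmer CFB probe set, with a mean of 6.44, differed by 0.03.

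PIGR stood against the other effectors. It encodes the polymeric immunoglobulin receptor, which carries IgA across the epithelium, and read 6.63, 7.25 and 9.75 in the cystic and 8.81, 9.07 and 11.33 in the spiky clone. On every day the spiky clone was higher, by 2.17, 1.82 and 1.59, although the cystic day 15 value exceeded the spiky values of day 5 and 10. The fitted difference of 1.86 is 3.63-fold (SE 0.14, limma adjusted p = 0.000176).

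ICAM1, CD83, IRAK2 and PIGR passed between the clones with any 1 array left out. The other 9 calls were lost without the day 5 array of either clone (adjusted p from 0.0522 for TNFAIP3 to 0.259 for RIPK2), 7 without the cystic day 10 array and 6 without the spiky day 10 array (0.0503 for LCN2 to 0.382 for BIRC2). Without either day 15 array 16 of the 26 genes were called.

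The gap between the clones was not equally wide on the 3 days (plot of the difference by day). The spiky value was below the cystic one on all 3 days in 17 of 26 genes (65.4%, beside 25.7% of all genes tested) and above it on all 3 in 4 (15.4%, beside 19.3%). The median gap of the 26 genes was -0.39 at day 5, -0.66 at day 10 and -0.22 at day 15, while over all genes it was 0.00, -0.08 and -0.02. In 12 of 26 genes (46.2%, beside 34% of all genes) the day 15 gap was smaller than both earlier ones. For TNFAIP2, LTB, LCN2 and CFB it went from -1.10 or lower at day 5 and 10 to between -0.15 and -0.37 at day 15, whereas for C3 it was widest at day 15, at -1.39. With 1 array per clone and day these daily gaps have no error of their own.

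**Figure D3:**
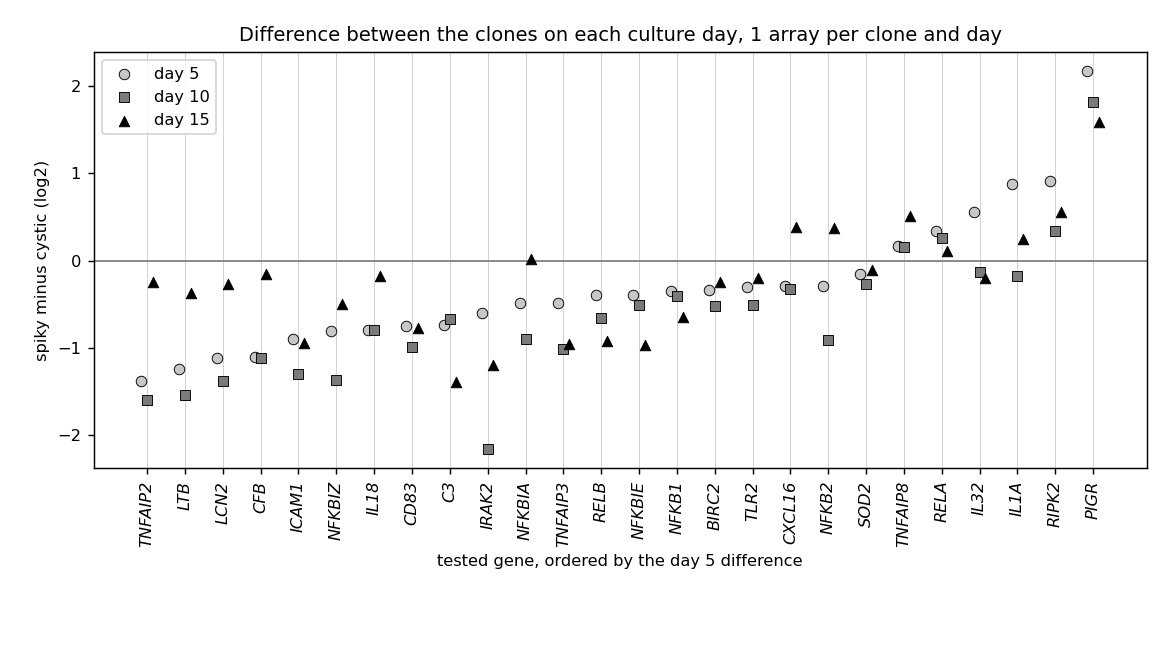
Difference between the spiky and the cystic array of each culture day (vertical axis, log2) for the 26 tested genes, ordered by the day 5 difference; each point is 1 array minus 1 array, and shade and shape give the day. At the left end, the black day 15 triangles of TNFAIP2, LTB, LCN2 and CFB lie between -0.37 and -0.15, above their day 5 and 10 points.

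A model with day as a number tested whether the clones' slopes differed. Of the 26 genes 0 passed in limma, 0 had an unadjusted p under 0.05, and their adjusted p was 0.999 throughout. Over all genes 0% passed in either direction and 309 had an unadjusted p under 0.05. The steepest positive slope difference, spiky minus cystic per 10 days, was that of TNFAIP2 (1.13, SE 0.68) and the most negative that of IL32 (-0.76, SE 0.42). This model tests a steady change with day only, and a gap that differs at day 10 alone was not tested.

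The second set of comparisons followed the culture over time, with colony shape as the other term of the model. Each day has 1 array of each clone, so here the clones serve as the repeats. Culture day cannot be told apart from anything else that the arrays of a day share. Between day 5 and day 10, 0 of 26 genes passed (limma, Benjamini-Hochberg), as did 0.00812% of all genes in each direction. At an unadjusted p under 0.05, 4 of the 26 (15.4%) and 13.5% of all genes stood out. The 4 were IL1A (at least 1.78-fold higher at day 10, with the cystic day 5 array under 5), IL32 (-0.96), NFKBIZ (0.81) and PIGR (0.44).

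From day 5 to day 15, 7 of the 26 genes rose and 4 fell (limma, Benjamini-Hochberg adjusted p under 0.05), while 10.4% of all genes rose and 21.9% fell. Of 2 tested fibroblast markers, COL1A1 rose by 1.38 over the same days (limma adjusted p = 0.00203), while FBLN1 changed by 0.21 without passing. Of 6 tested epithelial markers, KRT18 and KRT8 fell by 0.66 and 0.48 (0.00106 and 0.0412). The rest did not pass, and CDH1 had a positive change of 0.32. Of the leukocyte markers 0 of 4 passed. The ACTB 3′ to 5′ difference was larger at day 15 than at day 5 in both clones. It was 3.28 against 2.83 in the cystic and 3.10 against 2.73 in the spiky one. That of the GAPDH control probes was smaller at day 15, at 0.63 against 0.65 in the cystic and 0.49 against 0.60 in the spiky clone. The part of the markers and of RNA quality in the changes was not tested. The risers were PIGR, IL1A, LCN2, NFKBIZ, TNFAIP2, CFB and C3, and those that fell were IL32, NFKB1, TLR2 and CD83. The count that fell was 7 with each array centred on its median and 6 with quantile normalization, with the mean of all probe sets and with a mean of at least 6 required. Of the 7 effectors 4 rose and 1 fell, and of the 4 subunits 0 rose and 1 fell. The sign of the change was the same in both clones for 21 of 26 genes, beside 75.5% of all genes (plot of the change in each clone). It was the same for all 11 that passed. A pass favours genes that change alike in both clones, so this adds no separate support. From day 10 to day 15, which shares the day 15 arrays with that comparison, 7 genes rose and 3 fell, beside 8.66% and 14.0% of all genes. The genes that rose in this interval were PIGR (2.38), CFB (1.50), LCN2 (1.46), TNFAIP2 (1.36), C3 (at least 2.19-fold), IL1A (0.98) and NFKBIZ (0.89), those that fell NFKB1 (-0.90), CD83 (-0.59) and TLR2 (-0.49), and IL32 had a value of -0.34 (adjusted p = 0.207).

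**Figure D4:**
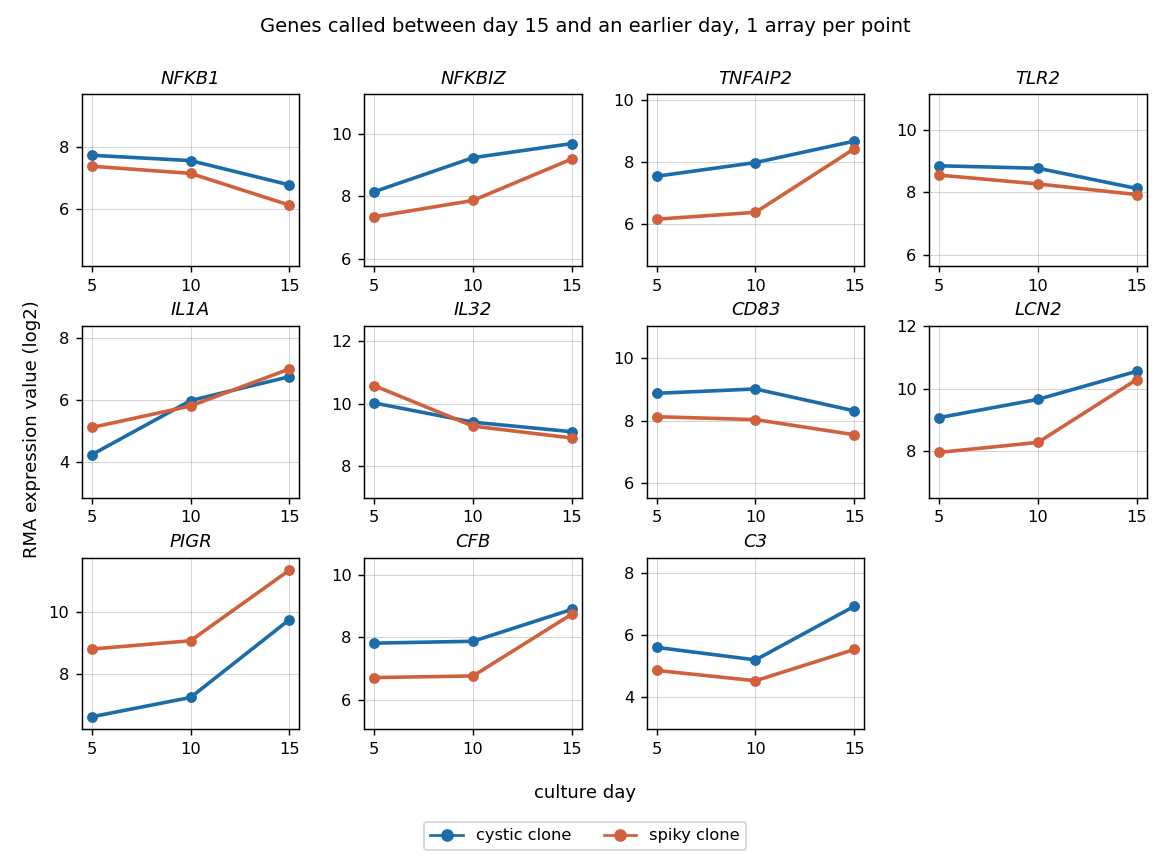
Log2 RMA values (vertical axis, the same span in every panel) against culture day for the 11 genes called between day 15 and an earlier day, with 1 array per point and a line per clone. PIGR, LCN2, CFB and C3 climb mainly after day 10, IL32 drops mainly before it, and NFKB1 falls after day 10 in both clones.

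PIGR had the largest rise, from 6.63 to 9.75 in the cystic and from 8.81 to 11.33 in the spiky clone between day 5 and 15. Most of it fell between day 10 and 15 (2.38, SE 0.17, limma adjusted p = 0.000252), and the whole rise was 2.82, or 7.06-fold (adjusted p = 6.3e-05). IL1A, the alpha form of interleukin 1, which is released from damaged epithelium, read 4.25, 5.98 and 6.75 in the cystic and 5.12, 5.81 and 6.996 in the spiky clone. Each later day was higher in both clones, and IL1A rose by at least 3.51-fold from day 5 to 15, since the cystic day 5 array lay under 5 (fitted change 2.19, SE 0.27, adjusted p = 0.00101).

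LCN2 rose by 1.91 (3.76-fold, SE 0.23, limma adjusted p = 0.000903) and NFKBIZ by 1.70 (3.24-fold, SE 0.20, 0.00091) from day 5 to day 15. The change was positive in each clone, 1.48 in the cystic and 2.34 in the spiky for LCN2, and 1.54 and 1.85 for NFKBIZ. TNFAIP2 rose by 1.69 (SE 0.30, adjusted p = 0.00351), with 1.12 in the cystic and 2.26 in the spiky clone. CFB rose by 1.56 (SE 0.25, adjusted p = 0.00231), with 1.08 and 2.03, and almost all of it lay after day 10 (1.50). The dimmer CFB probe set, with a mean of 6.44, had a smaller change of 0.34 from day 5 to day 15. C3 had changes of 1.32 in the cystic and 0.67 in the spiky clone, and the fitted change of 0.99 (SE 0.25, adjusted p = 0.0159) is at least 1.90-fold. The slope test above called none of these differences between the clones.

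NFKB1 was the 1 subunit that changed. It read 7.72, 7.55 and 6.78 in the cystic and 7.37, 7.14 and 6.13 in the spiky clone, so that the day 15 value was the lowest in each, and fell by 1.10 between day 5 and 15 (2.14-fold, SE 0.19, limma adjusted p = 0.00333). The other subunits had changes of 0.29 (NFKB2), -0.11 (RELA) and -0.61 (RELB), with adjusted p of 0.0698 to 0.569. For NFKB2, the clones went apart in sign, with -0.05 in the cystic and 0.62 in the spiky clone, and a dimmer probe set of the gene, with a mean of 6.04, had a fitted change of -0.30.

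IL32, a proinflammatory cytokine of epithelial cells, read 10.02, 9.41 and 9.10 in the cystic and 10.58, 9.28 and 8.90 in the spiky clone. It fell by 1.30 from day 5 to day 15 (2.46-fold, SE 0.18, limma adjusted p = 0.00145), the largest drop of the 26 genes. TLR2 read 8.85, 8.77 and 8.12 against 8.55, 8.27 and 7.93 and fell by 0.68 (SE 0.15, adjusted p = 0.0107). CD83 fell by 0.57 (SE 0.15, adjusted p = 0.0216), by 0.56 in the cystic and 0.58 in the spiky clone. ICAM1, lower in the spiky clone on all 3 days, differed by 0.02 between day 5 and 15 (adjusted p = 0.930).

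**Figure D5:**
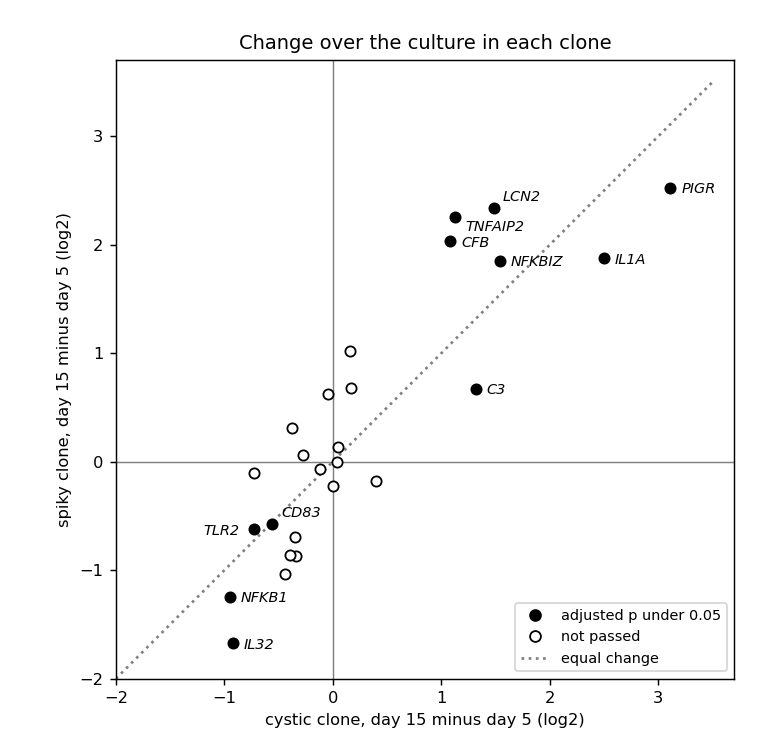
Change from day 5 to day 15 in the cystic clone (horizontal axis, log2) against that in the spiky clone (vertical axis, log2) for the 26 tested genes, 1 array minus 1 array on each axis; filled points passed in limma and the dotted line marks equal change. PIGR lies at 3.11 and 2.53, IL32 at -0.92 and -1.68, and 21 of the 26 points fall in the quadrants where both clones have the same sign.

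IL1A, IL32, LCN2, NFKBIZ and PIGR kept their day 5 to day 15 call with any 1 array left out. Without the spiky day 5 array the calls of C3, CD83, CFB, NFKB1, TLR2 and TNFAIP2 were lost (adjusted p from 0.0575 to 0.193), as were those of C3, CD83 and TLR2 without the cystic day 5 array (0.0742 to 0.132) and that of C3 without the cystic day 15 array (0.114). Of the day 10 to day 15 calls, those of C3, CFB, LCN2 and PIGR passed without any 1 array, while CD83, IL1A, NFKB1, NFKBIZ, TLR2 and TNFAIP2 lost theirs without the spiky day 10 array (0.0870 to 0.288). Those of CD83, NFKB1 and TLR2 were lost without the cystic day 10 array (0.0589 to 0.417), CD83 and TLR2 without either day 5 array (0.0512 to 0.0907), IL1A and TLR2 without the cystic day 15 array (0.0634 and 0.122), and IL1A and NFKBIZ without the spiky day 15 array (0.0555 and 0.0567). Under other scalings of the arrays, the shares of all called genes that rose moved from 32.3% to 44.9% (cyclic loess) or 23.6% (median centring) between day 5 and 15, and from 38.3% to 27% (median centring) or 49.5% (cyclic loess) between day 10 and 15.

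The rest of the pathway was read from a list of 56 receptors, adaptors, kinases and regulators that are not among the 34 genes, 54 of them on the array and 47 tested. Between the clones 1 was higher and 1 lower in the spiky clone (2.13% each, beside 3.65% and 7.74% of all genes), and the median difference was -0.11. TNFRSF1B, a TNF receptor, was the higher one, at 7.73, 7.56 and 8.17 in the spiky against 6.51, 6.74 and 7.42 in the cystic clone (log2 difference 0.93, SE 0.16, limma adjusted p = 0.00706). IKBKE, an IkB kinase-related kinase that NF-kB itself induces, was the lower one (-0.75, SE 0.18, adjusted p = 0.0255).

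Of the IkB kinase complex, IKBKB rose over time while CHUK and IKBKG fell. Each was read from its brightest probe set, and other probe sets of these genes were not compared. IKBKB, the catalytic beta subunit, read 7.63, 7.92 and 9.19 in the cystic and 7.21, 7.21 and 9.05 in the spiky clone and rose by 1.70 from day 5 to 15 (3.25-fold, SE 0.18, limma adjusted p = 0.000666). CHUK, the alpha subunit, read 7.16, 6.99 and 6.22 against 7.31, 7.09 and 5.95 and fell by 1.15 (SE 0.21, adjusted p = 0.00378). IKBKG, the scaffold subunit NEMO, fell by 0.62 (SE 0.20, adjusted p = 0.0431). It read 6.94, 6.34 and 6.20 in the cystic and 6.76, 6.14 and 6.25 in the spiky clone. Its fall thus lay mainly before day 10, while IKBKB and CHUK moved mainly after it. IKBKG lies outside the naming rule and was named after its values were seen.

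In all, 5 of the 47 signalling genes rose (10.6%, beside 10.4% of all genes) and 9 fell (19.1%, beside 21.9%) from day 5 to day 15, shares near those of all genes. From day 10 to day 15, 3 rose (6.38%, beside 8.66%) and 4 fell (8.51%, beside 14.0%). Beside IKBKB, the risers from day 5 included the kinase MAP3K8 (1.47), TNFRSF1B (0.67) and BTRC (0.51), part of the ubiquitin ligase that marks IkB for degradation. Those that fell included IRAK1 (-0.66) and IRAK3 (-0.86), kinase-family proteins of the IL-1 receptor pathway, and the inhibitor NFKBIB (-0.82). From day 10 to day 15, IKBKB (1.56), TNFRSF1B (0.65) and TNIP1 (0.63), which binds A20, rose. CHUK (-0.95), IRAK1 (-0.39), NFKBIB (-0.65) and the death receptor TNFRSF21 (-0.54) fell. Between day 5 and 10 none of the 47 passed in limma. An unadjusted p under 0.05 was found for 7 (14.9%), near the 13.5% of all genes. The largest differences were MAP3K8 (0.67, limma adjusted p = 0.366) and CARD10 (-0.65, 0.334).

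A further list held 57 other known NF-kB targets, 52 of them on the array and 28 tested. In the spiky clone 13 were lower (46.4%, beside 7.74% of all genes) and 2 higher (7.14%, beside 3.65%), and the median difference was -0.52. Like the other lists, this one was chosen with earlier results of these data known. Its shares beside those of all genes are therefore no independent test and add no separate support to the differences described above. The neutrophil-attracting chemokines CXCL1 (10.6-fold), CXCL3 (9.06-fold), CXCL2 (at least 6.89-fold) and CXCL8 (5.01-fold) were lower, with limma adjusted p of 9.3e-05 to 0.00075. The higher ones were the coagulation initiator F3 (0.85, SE 0.14, adjusted p = 0.00492) and CFLAR (0.76, SE 0.14, 0.00984), which blocks caspase activation at death receptors. The consensus element was found in 16 of 41 promoters of this list (39.0%) and in 5 of 49 of the signalling list (10.2%), beside 9.57% of all promoters. As this list was made of known targets, its share with the element is no independent test either.

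From day 5 to day 15, 5 of these 28 targets rose (17.9%, beside 10.4% of all genes) and 4 fell (14.3%, beside 21.9%). The epithelial transcription factor ELF3 rose by 0.91, the survival gene BCL2L1 by 0.55, the stress-response gene IER3 by 0.27 and the death ligand TNFSF10 by at least 1.71-fold (limma adjusted p of 0.00989 to 0.0364). F3 fell by 1.40, CXCL8 by 1.59, CFLAR by 0.98 and GCH1, which makes the cofactor tetrahydrobiopterin, by 0.59 (0.000874 to 0.0258). From day 10 to day 15, 5 rose and 5 fell (17.9% each, beside 8.66% and 14.0%), with TNFSF10 (at least 1.63-fold), ELF3 (0.83), BCL2L1 (0.71) and IER3 (0.30) up and CXCL8 (-2.15), CXCL3 (-0.97), GCH1 (-0.82) and F3 (-0.65) down. Between day 5 and 10 none passed in limma. An unadjusted p under 0.05 was found for 5 (17.9%, beside 13.5% of all genes). The largest differences were F3 (-0.75, limma adjusted p = 0.173) and CXCL3 (0.66, 0.327).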

How the data were processed

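The deposited log2 values were made by the authors with RMA, per the submitters' processing notes, which as read here name no version. They ran from 1.72 to 15.07 with 0 missing, and array medians lay between 5.18 and 5.34. The precision rests on the number of arrays and on the limma fit. With few residual degrees of freedom, the fit draws each gene's spread largely towards that of other genes of like intensity. The SEs, intervals and p-values given are these moderated ones. Without the intensity trend, 1 of the 26 genes was called higher and 4 lower in the spiky clone.

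The platform table gave a single symbol for 41097 of 54675 probe sets, several for 1801 and none for 11777, and 41043 were matched to RefSeq. A limma model (version 3.58.1, R 4.3.3) with an intensity trend took all 6 arrays, day as a factor and colony shape, which left 2 residual degrees of freedom. Two-sided p-values were adjusted after Benjamini and Hochberg over all 12317 genes with a mean of at least 5. The fit was tested on simulated data. Where arrays of the dimmer group lay under 5, the fold is a lower bound with those arrays set to 5. Array values are given for those of the 34 genes that passed and for a few others. In the further lists, names go to the 4 rising and 4 falling genes of smallest p, or to the 2 largest differences where none passed. The 34 genes and all lists were chosen with earlier results of these data known. Alternatives are given in the closing section. Figures were drawn with matplotlib 3.10.9.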

Additional observations from a re-analysis of the deposited data

How the results depend on the processing

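Of the 596 pairs of a called gene among the 34 and an alternative setting, the call was kept in 470 and lost in 126, and the direction turned in 0. ICAM1 between the clones, and IL1A and IL32 between day 5 and 15, passed under every setting run, while BIRC2 and CFB passed in 8 and 9 of 19 between the clones and TLR2 in 6 of 17 from day 10 to 15. Between the clones, 13 of the genes and 1403 of all genes were called; without an intensity trend 5 and 691, without the day block 1 and 72, with day as a number 5 and 566, with 1 array left out 4 to 16 and 507 to 2157, and with both day 15 arrays left out, chosen after seeing the data, 15 and 2171. From day 10 to 15, 10 and 2786 were called; without an intensity trend 5 and 1444, without the shape term 0 and 337, with 1 array left out 4 to 13 and 1019 to 3577. From day 5 to 15, 11 and 3982 were called; without the shape term 2 and 1457, with 1 array left out 5 to 13 and 761 to 4318. From day 5 to 10, 0 and 2 were called; over all genes a mean of at least 6 gave 19, no filter 0, the mean of all probe sets 1, the probe set with the highest SD 36, no intensity trend 0, robust empirical Bayes 11, no shape term 0 and 1 array left out 0 to 469 (0 to 3 of the genes). For the slope difference 0 and 0 were called, and 0 and 0 to 33 with 1 array left out. The cause of these shifts was not tested. The comparison of the clones is paired by culture day, which served as the block; the labels give no other replicate number. A mean under the required level of 5 limits what can be said of TNF, IL1B, CCL20, CXCL10 and TRAF1.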
